A study of Mus musculus with 8 samples.

Results

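The regions described here were 275 Klf6 peaks near genes that recurred in every sample of a ChIP-seq experiment. They were chosen from the peak list of OLP replicate A: each lay on chromosomes 1 to 19, carried a gene name, and had a peak no more than 500 bp away in OLP replicate B and in both iOL samples. They made up 11.1% of the 2476 gene-annotated autosomal peaks of OLP replicate A, which listed 12451 peaks, and the 4 lists together held 36280. The cells were primary C57BL/6 mouse oligodendrocyte progenitors (OLP) from postnatal cortex, grown with the mitogens PDGF-AA and bFGF, and immature oligodendrocytes (iOL), which were OLP given thyroid hormone (T3, 40 ng/ml) for 18 h. Klf6-bound DNA was isolated with a polyclonal rabbit antibody (SC-7158X) in replicates A and B of each stage, and 4 input samples without antibody were part of the series. No sample lacking Klf6 was among the 8. The methods of the study call A and B biological replicates, and the labels do not say which samples shared a cell preparation.

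Klf6 is a zinc-finger transcription factor of the Krüppel-like family, whose members bind GC-rich and CACCC-type sequences at promoters and enhancers. In the oligodendrocyte lineage it is known as a factor needed while progenitors differentiate and myelinate. Much of the mouse genome consists of copies of long interspersed elements, of which LINE-1 (L1) is the most abundant. A full-length L1 carries the code for an RNA-binding protein in the first of its reading frames and for an endonuclease and reverse transcriptase in the second, and many copies have lost their 5′ part.

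Most of the recurrent peaks near genes were pieces of this kind of repeat. The 7 kb on either side of 18 members held a pair of intact open reading frames in tandem, an L1 layout. For 11 of these members the frames had exactly 371 and 1281 codons with 40 bases between them, and the 2 near Ano10 were on the same copy. The copy to which most members aligned lay near Pogk, at chr1:168348643-168355099 on the minus strand (mm9), was 6457 bases long and held frames of 377 and 1280 codons. It served as the reference copy, and a peak was counted as lying on the element when at least 50% of its bases aligned to it. The name L1-type rests on the frames and on the copy number, since no repeat annotation was used.

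Peaks assigned to unrelated genes on different chromosomes read almost alike. The 4 sequences that follow, shown because they come from the same place in the first frame of the element, were the OLP A peaks near Slc24a3 (a sodium, calcium and potassium exchanger, chr2:145067167-145067260), Ankfn1 (chr11:89416652-89416831), Vmn2r72 (a pheromone receptor, chr7:92917324-92917453) and Sema5a (an axon guidance ligand, chr15:32143689-32143787). Each is written 5′ to 3′ on the element's sense strand (plus for Ankfn1, minus for the others, mm9), and the capitals mark the 27 bases that all 4 hold without a difference.
Slc24a3: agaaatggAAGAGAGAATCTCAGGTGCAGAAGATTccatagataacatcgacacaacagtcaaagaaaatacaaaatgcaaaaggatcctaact
Ankfn1: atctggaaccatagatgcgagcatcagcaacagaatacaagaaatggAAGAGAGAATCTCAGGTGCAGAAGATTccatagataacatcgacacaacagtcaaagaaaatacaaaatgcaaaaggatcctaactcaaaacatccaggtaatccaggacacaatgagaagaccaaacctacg
Vmn2r72: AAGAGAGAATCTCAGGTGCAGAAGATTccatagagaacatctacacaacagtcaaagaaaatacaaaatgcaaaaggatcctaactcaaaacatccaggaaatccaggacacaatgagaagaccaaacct
Sema5a: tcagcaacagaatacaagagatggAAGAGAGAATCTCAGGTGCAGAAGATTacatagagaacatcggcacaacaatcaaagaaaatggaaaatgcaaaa

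Of the 275 members, 245 lay on the L1-type element, which is 89.1%. Among gene-annotated OLP A peaks the share was 37.5% where no other sample had a match (564 of 1502), 62.9% with a match in 1 other sample and 77.4% with 2. The peaks that carried no gene name were higher throughout, from 54.0% without a match to 94.6% of the 1397 shared by all 4 samples. Across the autosomes, 10.0% of 11908577 non-overlapping windows, each as long as a summit with 100 bases on either side, met the same criterion. The whole autosomal lists held 67.2% of OLP A, 63.8% of OLP B, 69.0% of iOL A and 77.4% of iOL B peaks on the element. The shares thus followed the number of samples with a match, with and without a gene name. They are given as a description, without a test.

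**Figure D1:**
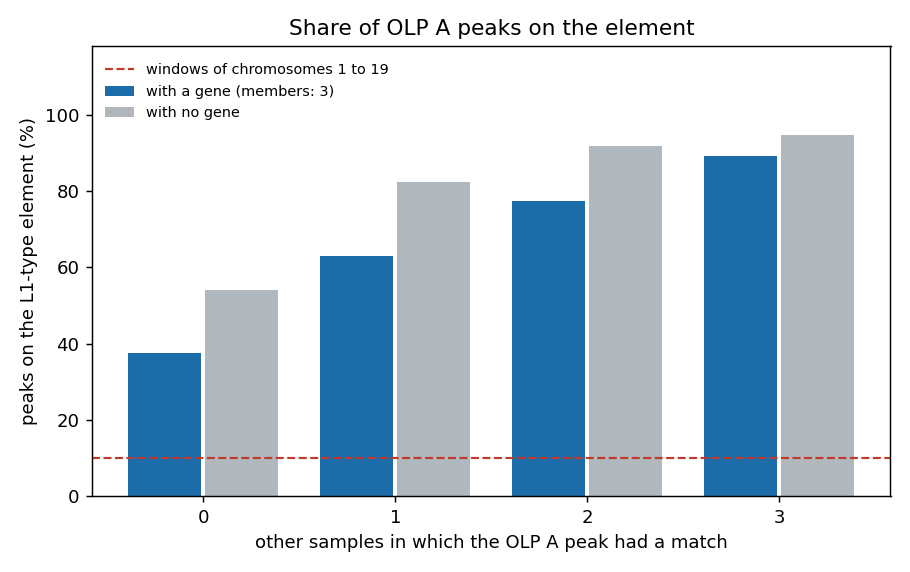
Percent of autosomal OLP A peaks with at least 50% of their bases on the L1-type element, by the number of other samples with a matching peak, for peaks with a gene name (blue, where 3 are the members) and without (grey). The dashed line is the share of windows of chromosomes 1 to 19; the blue bars run from 37.5% to 89.1%, all above the line at 10.0%.

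Within the element the members sat mainly in its coding part. Of the 245, 189 (77.1%) had their summit in the second frame and 42 (17.1%) in the first, which make up 59.5% and 17.5% of the reference copy. The part after the second frame held 11 members (4.49%), although 23.2% of all autosomal bases aligned to the element belong to it, and the part before the first frame held 2. OLP A peaks without a match elsewhere had 69.7% in the second frame and 12% after it. The peaks without a gene name shared by all 4 samples had 74.8% in the second frame and 8.40% after it. The members' copies aligned to the reference with a median identity of 95.1% (quartiles 94.1 and 96.4), the unmatched OLP A peaks' with 93.0%, and the 237887 alignments in the autosomes with 85.7%. An identity of at least 95% was reached by 51.8% of the members, by 31.1% of the unmatched OLP A peaks and by 9.32% of the autosomal alignments. The peaks without a gene name shared by all 4 samples reached it in 58.2%, with a median identity of 95.6%, so high identity was not particular to the members.

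**Figure D2:**
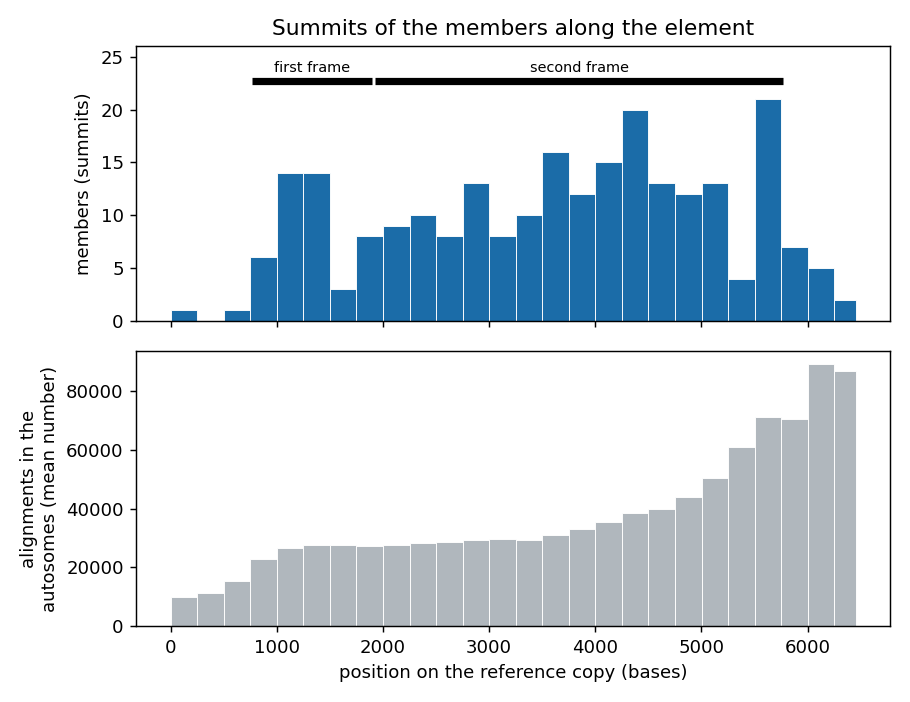
Number of member summits (top) and mean number of autosomal alignments (bottom) in windows of 250 bases along the 6457-base reference copy, with black bars for the reading frames. Member summits spread over both frames and thin out after the second, where the alignments are most numerous.

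The members on the element resembled each other closely. Of the 245, 242 aligned over at least 50 bases to another member, with a median of 10 partners, and the best partner was 98.2% identical at the median. In 25 pairs, made of 44 members, the spacing on the chromosome equalled the spacing on the element within 10% or 20 bases, so the peaks lay on one and the same copy, 145 to 3481 bp apart. All 3 members of Adam26a (a testis metalloprotease) and all 3 of Vmn1r17 (a vomeronasal receptor) were such neighbours on a single copy. Of the 3 near Olfr1154 (an olfactory receptor), 2 shared a copy and 1 lay farther upstream. Members on one copy are not separate observations of a gene.

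Short stretches of the members were highly repeated. Reading each peak in overlapping stretches of 32 bases, the median stretch occurred 1981.5 times in the genome at the median member, against 132 times over all autosomal OLP A peaks and 39 times for gene-annotated peaks unmatched in other samples. In 267 members (97.1%) the median stretch occurred more than once, against 87.3% of all autosomal OLP A peaks. Not a single stretch was unique in 179 members (65.1%), close to the 60.4% over all autosomal OLP A peaks. No member consisted of unique stretches alone, while 15.6% of the unmatched gene-annotated peaks and 8.70% of all autosomal OLP A peaks did. With stretches of 50 bases, 242 members (88.0%) still had a median above 1 copy, against 80.3% over all autosomal OLP A peaks. The peaks without a gene name shared by all 4 samples were alike, with a median of 2291 copies and 0 made of unique stretches alone. The median GC content was 37.8%, and 41.8% for the autosomal windows. How reads that match several places were assigned is not given in the sources used here, so the copy and the gene that a member's tags come from is uncertain.

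The other 30 members were of several kinds. A run of at least 30 bases with a repeat unit of 1 to 6 bases stood in 12 of them and in none of the 245. Over all 275 members this is 4.36%, near the 3.85% of all OLP A peaks. Among the gene-annotated OLP A peaks that were not members, 5.00% held such a run. D17Wsu104e (chr17:56339353-56339522) and Gm13580 (chr2:60240808-60240954) were built on a unit of 5 bases over 79 and 77 bases, Kl (the ageing-related co-receptor Klotho) on CTT, and Rnf44 on CCTT. Fam118b (chr9:35112685-35113182), with 684 tags in OLP A the most heavily covered member, matched itself best at an offset of 234 bases (63.6% identity over 264 positions).

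Some of the 30 carried tRNA gene sequence. The B box, the internal promoter of tRNA genes (GNTCGANNC, either strand), stood within 100 bases of the summit in 7 of the 30 and in 15 of all 275 (5.45%), against 2.44% of all OLP A peaks, 3.63% of the gene-annotated OLP A peaks that were not members and 1.55% of the autosomal windows. The other 8 of the 15 lay on the element. The box alone does not show a tRNA gene, and only the peaks printed below are read as such here. The motifs CCACCC and CCGCCC cannot lie within the B box, though their end bases may overlap that box. The peaks near Hist1h4h (a histone H4 gene, chr13:23622215-23622307, minus strand), Trim41 (a ubiquitin ligase, chr11:48632035-48632155, plus strand) and Zfp184 (a zinc-finger protein, chr13:22022977-22023117, minus strand) are printed because they hold this box, in capitals, inside sequence that reads as a whole tRNA gene.
Hist1h4h: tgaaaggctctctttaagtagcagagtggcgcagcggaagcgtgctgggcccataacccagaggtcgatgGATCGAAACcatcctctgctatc
Trim41: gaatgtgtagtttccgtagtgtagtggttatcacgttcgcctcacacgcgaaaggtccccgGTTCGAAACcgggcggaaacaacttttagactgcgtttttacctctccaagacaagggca
Zfp184: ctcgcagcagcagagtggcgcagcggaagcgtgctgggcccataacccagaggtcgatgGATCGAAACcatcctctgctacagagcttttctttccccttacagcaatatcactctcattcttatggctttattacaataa
The peaks near Hist1h4h and Zfp184 start 1599238 bp apart on chromosome 13 and shared 72 bases without a difference. Both read as the initiator methionine tRNA gene, and the peak near Trim41 as a valine tRNA gene.

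Letters typical of Krüppel-like factor sites were uncommon in the members. Within 100 bases of the summit, CCACCC stood on either strand in 12 of 275 members (4.36%), in 4.56% of all OLP A peaks and in 11% of the autosomal windows. The low share was that of the members on the element, 8 of 245 (3.27%), while 4 of the 30 off it held the motif (13.3%). CCGCCC stood in 2 members (0.727%), in 0.482% of OLP A peaks and in 2.02% of windows. A missing match says only that these letters are not in the window.

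Most members held few tags in each sample. The total over all listed peaks was between 105081 (iOL B) and 152149 (OLP A) tags, and the members took 2.95% of these in OLP A, 4.12% in OLP B, 3.49% in iOL A and 5.48% in iOL B. The median member held 13 tags in OLP A, 15 in OLP B, 12 in iOL A and 18 in iOL B. Median fold enrichment over the control was 24.3 in OLP A, 13.5 in OLP B, 22.7 in iOL A and 13.7 in iOL B, and since the calls of all 4 samples chose the members, these values are a description. The replicate letter, rather than the stage, ordered these values: both A samples exceeded both B samples in 207 members (73% over all 1672 shared autosomal peaks), whereas both OLP exceeded both iOL in 19 (7.3% over all) and both iOL exceeded both OLP in 14 (6.82% over all). The lowest of the 4 values fell in OLP B for 161 members and in iOL B for 101. The MACS false discovery rate was at least 5% for 3 members in iOL B and for none in the other samples.

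**Figure D3:**
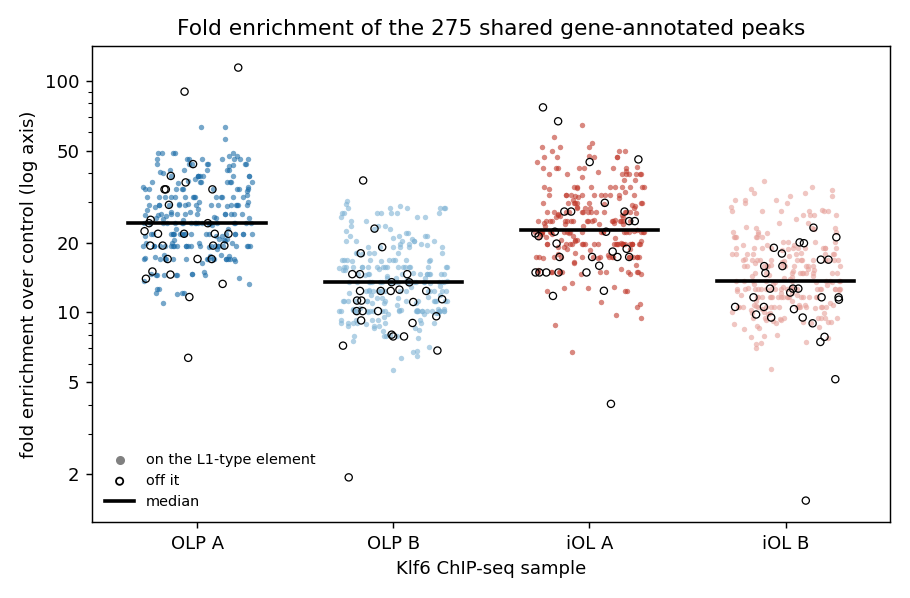
MACS fold enrichment of the 275 members in each Klf6 sample (log axis), as filled points on the L1-type element and open circles off it, with the median as a bar. The medians of the A samples, 24.3 and 22.7, lie above those of the B samples, 13.5 and 13.7, and the lowest circles are Fam118b.

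The 10 members with the highest enrichment in their weakest sample all lay on the element. 4931428L18Rik, an uncharacterised clone gene whose peak lay in its own intron (chr1:31275265-31275522), was enriched 38.9-fold in OLP A, 30.4-fold in OLP B, 32.3-fold in iOL A and 30.7-fold in iOL B. Its 4 values overlapped between the stages, and 64.7% of its bases were on the element, at the 3′ end. For Pwp1, a nucleolar protein, the peak 13989 bp upstream (chr10:85320534-85320690) had 32, 28.2, 47.1 and 32.8-fold enrichment in the same order. Abi3bp, an extracellular matrix protein, gave 48.6, 28.2, 57.1 and 26.4-fold, with both A samples above both B samples. Slc24a3 had 23.0, 24.8, 39.7 and 29.6-fold enrichment. For Pwp1 and Slc24a3 both iOL values exceeded both OLP values, which is a description of 2 samples per stage. Olfr535, Gm13084, Olfr418-ps1, Ankfn1, Olfr1271 and Olfr1154 followed, with lowest values from 23.7 down to 21.9.

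The 3 members with the most tags in OLP A were off the element. Fam118b held 684, 692, 682 and 688 tags in OLP A, OLP B, iOL A and iOL B at only 6.37, 1.94, 4.03 and 1.54-fold enrichment. Its raw tags were thus nearly equal, while its enrichment differed between the samples and was the lowest of all members in each. D17Wsu104e held 48, 36, 29 and 17 tags, at 114-fold in OLP A, 37.2-fold in OLP B, 67-fold in iOL A and 5.15-fold in iOL B. Gm13580 had 38, 30, 33 and 14 tags and had its lowest enrichment, 7.85-fold, in iOL B as well.

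The position of the peaks repeated to within a few bases. In 255 members the 4 peaks overlapped or touched, and in 249 the summits of the other 3 samples were all within 50 bp of the OLP A summit. The median summit offset was 4 bp in OLP B, 4 bp in iOL A and 3 bp in iOL B. Each of the 275 carried the same nearest gene in all 4 lists. Not every member had a partner of its own: the 275 matched 261 different peaks in OLP B, 266 in iOL A and 268 in iOL B. At the limit of 500 bp, the widest gaps inside were 449 bp (Cyp4b1), 459 bp (Olfr1002) and 465 bp (Adam26a), and the closest peaks outside were near Pcdh18 (526 bp), Prl7c1 (556 bp) and Dtwd1 (560 bp).

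The genes nearest to the members included large tandem families, and their shares are set beside those of all gene-annotated OLP A peaks as a description, without a test. Olfactory receptors, which detect odorants in the nose, accounted for 45 members at 38 genes (16.4%), against 8.84% of all gene-annotated OLP A peaks. Their OLP A enrichment ranged from 12.2 to 48.6-fold, and 42 of the 45 lay on the element. Vomeronasal and formyl peptide receptors had 22 members (8% against 7.03%), all on the element, with Vmn2r58 (63.2, 21.4, 52.1 and 30.7-fold in OLP A, OLP B, iOL A and iOL B) and Vmn1r22 (43.8, 20.3, 34.3 and 30.7-fold) as those with the highest enrichment in their weakest sample. In both of these, both A samples lay above both B samples. Enzymes of xenobiotic metabolism and serpins had 20 members (7.27% against 3.39%), all on the element, among them the carboxylesterase Ces2b (29.2, 15.8, 29.8 and 16-fold) and Serpina1a (17.6, 16.9, 27.3 and 18.0-fold). Lectin, histocompatibility and defensin clusters had 8 members (2.91% against 3.68%). Predicted genes contributed 22 (8% against 9.21%) and RIKEN or GenBank clones 25 (9.09% against 9.85%), and 85 members were near genes on none of the lists. Chromosome 7, with its olfactory and vomeronasal receptor clusters, held 47 members, which is 13.8% of its 341 gene-annotated OLP A peaks, against 11.1% over all autosomes and 16.3% on chromosome 8.

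**Figure D4:**
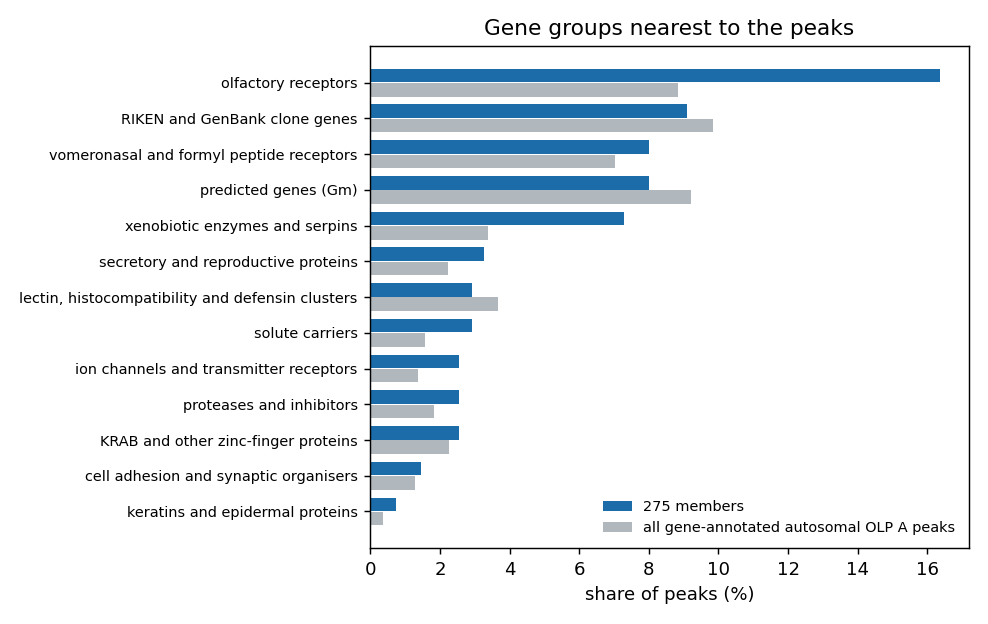
Share of the 275 members (blue) and of all 2476 gene-annotated autosomal OLP A peaks (grey) whose nearest gene belongs to each group with at least 2 members, in percent. Olfactory receptors stand at 16.4% against 8.84%, and xenobiotic enzymes and serpins at 7.27% against 3.39%.

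Few gene-annotated OLP A peaks, members or not, lay near genes of the oligodendrocyte lineage list. Of the lineage and myelin list, 2 annotated OLP A peaks existed and 1 was a member: Mal, a proteolipid of compact myelin, with a peak 15924 bp upstream of its start (chr2:127498305-127498498). It was enriched 41.3-fold in OLP A, 15.8-fold in OLP B, 15.3-fold in iOL A and 15.9-fold in iOL B, so that OLP A alone stood apart. Its tags numbered 19, 14, 10 and 15, and all of its bases were on the L1-type element, with 2199 copies of its median stretch. Nkx2-2as, the antisense transcript beside the oligodendrocyte factor Nkx2-2, had a member 40348 bp upstream, also on the element (26.7, 11.7, 24.4 and 12.7-fold). None of the members belonged to the Klf and Sp factors (0 of 3 annotated OLP A peaks), to the gp130 and importin pathway (0 of 3) or to a list of Klf6-regulated genes (0 of 11). Members were 11.1% of all gene-annotated OLP A peaks, so counts this small do not set these lists apart. Ligands, receptors and adhesion molecules of the nervous system contributed Sema5a (24.3, 15.3, 26.2 and 15.9-fold), Slitrk1, a synaptic organiser (21.9, 10.1, 17.4 and 10.6-fold), and the protocadherins Pcdh18 and Pcdhga1. All 4 of these lay on the element. Gabrg1, a GABA receptor subunit, and Ano10, of the anoctamin channel family, each had 2 members on the element. In all, 22 genes had 2 or more members and 3 of them had 3.

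Few members lay near promoters. None was within 500 bp of a transcription start site, 1 within 1 kb and 4 (1.45%) within 2 kb, whereas 5.79% of the unmatched and 4.64% of all gene-annotated OLP A peaks were within 2 kb. The median position relative to the start site was -20084 bp, against -19738 bp over all gene-annotated OLP A peaks, and 174 (63.3%, against 60.5%) lay more than 15 kb upstream. Another 8 lay downstream of the start site (2.91% against 6.58%). By GENCODE annotation of the same build, 233 members were intergenic, 42 intronic and none touched an exon. Of the 4 nearest, Hist1h4h (-651 bp), Trim41 (-1189 bp) and Prr14 (-1580 bp) were off the element, and Slc24a3 (-1132 bp) was on it. Hist1h4h had 22.4, 7.19, 22.0 and 8.98-fold enrichment in OLP A, OLP B, iOL A and iOL B, with the A samples above the B samples.

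The iOL were compared with the OLP to ask whether tags in these recurrent regions moved with differentiation. None of the 275 members passed an adjusted p of 0.05 in the edgeR quasi-likelihood test, where 0% of the 1672 shared peaks were called, and the smallest adjusted p was 0.493. Without adjustment 15 members (5.45%) and 70 of all shared peaks (4.19%) had a p below 0.05, and DESeq2 called 0 members. The median log2 fold change was -0.01 in the members, with quartiles of -0.22 and 0.21, and 0.01 in all shared peaks. The scaling (TMM over the shared peaks) sets this centre: with library sizes from all listed tags the medians were 0.345 in the members and 0.367 in all shared peaks. The values of the members ran from -0.92 to 0.93 on the log2 scale, and the highest compared peaks at different places, as described further on. Among the 255 members whose 4 peaks overlapped or touched, the highest was 0.89 (Defb39, a defensin gene named after its values were seen). With 2 samples per stage, an exact permutation of 1 region cannot go below p = 0.33. On simulated counts the edgeR test recovered 33 of 100 planted 2-fold increases in iOL, so the absence of calls does not exclude changes of that size. Every tested peak had been called in all 4 samples from the same tags, so a region that lost its peak in either stage could not enter. The absence of calls therefore covers only regions with a peak in both stages.

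**Figure D5:**
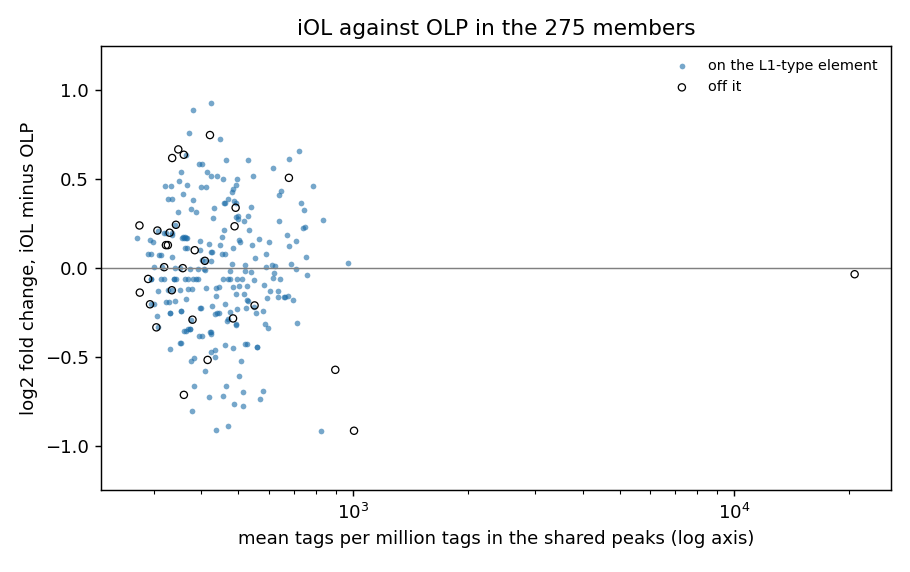
Log2 fold change of tags (iOL minus OLP, edgeR) against mean normalised tags (log axis) for the 275 members, filled on the L1-type element and open off it. Values lie between -0.92 and 0.93 (the latter a Defa20 member matched to peaks up to 167 bp away) around a median of -0.01, and the open circle at the far right is Fam118b.

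Single members show the size of the spread. D17Wsu104e, the member with the smallest p, had 48 and 36 tags in OLP against 29 and 17 in iOL, a log2 fold change of -0.92 ± 0.28 (SE, n = 2 per stage) with an edgeR adjusted p of 0.493. Its raw tags did not overlap between the stages. Its normalised tags (relative to TMM library size) did, with 1578.8 and 1006.2 in OLP A and B against 1018 and 418.84 in iOL A and B. D17Wsu104e is a tandem repeat rather than a copy of the element. Defa20 is a gut antimicrobial peptide gene named here after its values were seen. At 1 of its 2 members it had 7 and 13 tags in OLP and 11 and 29 in iOL (0.93 ± 0.37). These raw tags overlapped between the stages. The normalised tags did not, with 230.25 and 363.35 in OLP A and B against 386.12 and 714.5 in iOL A and B. Of the raw tags only the 7 in OLP A belong to that member's own place. The peaks of the other samples lay 93 to 167 bp away and are the same ones that overlap the other member. That other member had 10 tags in OLP A and a log2 fold change of 0.73 ± 0.37. For Mal the log2 fold change was -0.46 ± 0.37, for Slc24a3 0.26 ± 0.32 and for Fam118b -0.03 ± 0.25, each with an edgeR adjusted p of 0.987.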

How the data were processed

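Klf6-bound DNA from OLP and iOL was sequenced in 2 replicates each, with input controls that were not analysed here. According to the study's methods, the authors mapped quality-filtered reads to mm9 with Bowtie2 (the submitters' notes also list CASAVA 1.8), called peaks with MACS for each ChIP sample against input, and assigned genes by distance to the RefSeq start site, within 50 kb upstream and 5 kb downstream in the deposited lists. MACS version and the treatment of reads with several matching places are not given in the sources used here. Each deposited list holds the raw tag count per peak, a score (−10 times log10 of the MACS p-value), the fold enrichment as a ratio over the local background, and the false discovery rate in percent.

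Peaks were matched by the gap between their ends (at most 500 bp, nearest first, ties by tags). The members and gene lists were chosen with earlier results of these data known. Named members were the 10 with the largest lowest-of-4 enrichment, the 10 nearest a start site, those on lineage, Klf or Klf6-regulated lists, the top 3 of other lists, genes with several members, the 3 with most tags, and those at the gap limit. Tags of iOL and OLP were compared over all 1672 shared peaks with edgeR 4.0.16 (TMM, quasi-likelihood, Benjamini-Hochberg) in R 4.3.3. The tested peaks were not all separate: 81 matches in OLP B, 63 in iOL A and 71 in iOL B reused the counts of a peak already matched. On simulated counts for 1672 peaks edgeR recovered 33 of 100 planted 2-fold increases in iOL and 100 of 100 planted 4-fold increases. It also called 4 unchanged peaks there. No decreases were planted, and the simulated peaks, unlike the real ones, did not have to be called in every sample. The alternatives were limma 3.58.1 and DESeq2 1.42.0. Totals of 105081 to 152149 tags per list, a median of 12 to 18 per member, set the precision, and p-values cover the spread between these samples only. Sequences came from NCBIM37, the assembly of mm9, and locations from GENCODE vM1. The reference copy was taken from the members' surroundings (frames of at least 300 and 1200 codons) and aligned to the autosomes with BLAST+ 2.17.0 (megablast, word size 16, E-value 1e-10, alignments of at least 50 bases). Copies of 32-base stretches were counted on both strands over the whole assembly, a count tested on planted repeats.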

Additional observations from a re-analysis of the deposited data

Results flagged for a closer look

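On chromosome X, outside the autosomes to which the members were limited, 25 of the 260 gene-annotated OLP A peaks (9.62%) had a match in all 3 other samples, and 0 of the 8 on chromosome Y did. They were set aside by the choice of chromosomes and entered no comparison. No group held 4 samples, so no sample was tested for standing apart.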

How the results depend on the processing

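The number of members depended most on limits of tags, score and distance. It was 166 with at least 10 tags in every sample, 28 with a MACS score of at least 100, 101 within 15 kb upstream to 5 kb downstream of a start site, and 4 within 2 kb. It stayed within 255 to 300 under other gaps, another list as the starting point, the false discovery limit or all chromosomes, was 187 at a score of 50, and ranged from 313 to 407 with 1 sample left out. Of the sequence measures, at least 100 copies of the median stretch held for 69.1% of members, against 53.0% of all autosomal OLP A peaks. It held for 77.8% of members within 100 bases of the summit (58.0% over all) and for 25.1% with stretches of 50 bases (22.4% over all). More than 1 copy held for 97.1%, and for 88.0% with 50 bases. The share on the L1-type element was 88.0% to 89.1% with a second reference copy near Ano10, 80% of bases, or the summit window, alternatives chosen after seeing the data.

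In the comparison of iOL with OLP, 0 peaks were called under edgeR, DESeq2, limma, summed tags, the minimum of tags and library sizes from all listed tags, which moved the median log2 fold change of all shared peaks to 0.37. Leaving out 1 sample gave 0 to 4 calls among all shared peaks and 0 to 1 among the members: without OLP replicate B, D17Wsu104e was called (edgeR log2 fold change -1.26, adjusted p = 0.0143). With 1 sample left in a stage, its spread is taken from the other stage. The replicate block (letters A and B as pairs) gave 0 calls; deviations of the A samples from their stage means correlated at 0.08 over 1672 peaks, and the letters are not known to mark shared preparations. Depth limits these values: the median member held 12 to 18 tags, and the standard error of Mal's log2 fold change, for example, was 0.37.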
